A study of Rattus norvegicus with 7 samples.

Results

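The miRNAs described here are both strands of miR-126, written rno-miR-126 and rno-miR-126*, together with rno-miR-221 and rno-miR-222. They were chosen by name, as 4 of the 677 rat miRNAs with probes on the array, with earlier results of these data known. The ratio of the 2 strands of miR-126 within an array was examined as well. Total RNA of pancreatic islets of male Wistar rats, released by collagenase digestion, had been hybridised to 7 single-colour Agilent miRNA arrays, 4 from rats aged 12 months (replicates 2, 4, 10 and 16) and 3 from rats aged 3 months (replicates 9, 11 and 13). Neither age had received a treatment according to the labels, and the question was how islet miRNA levels differ with age. The study's supplement counts 4 and 3 rats, so each array is taken as 1 rat.

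miR-126 is the best known miRNA of endothelial cells, the cells that line blood vessels, and islets are densely supplied with capillaries. Its gene lies within Egfl7, a gene of endothelial cells, and one hairpin yields both strands. rno-miR-126 is the main strand, which restrains inhibitors of VEGF signalling, and rno-miR-126* is the partner strand. miR-221 and miR-222 are made from neighbouring genes, are abundant in endothelial and smooth muscle cells, and act on the stem cell factor receptor Kit and the cell-cycle inhibitor Cdkn1b. They are also found in many other cell types. The arrays measured RNA of whole islets, so fewer cells of a type and less of a miRNA per cell cannot be told apart.

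The mature sequences show which members could act on the same targets. They are given from RefSeq (build GRCr8), 5′ to 3′, with the seed (bases 2 to 8) in capitals, and a genome of the array's own, older design build was not used here. The array names rno-miR-126 and rno-miR-126* were matched to the RefSeq entries rno-miR-126a-3p and rno-miR-126a-5p, whose gene RefSeq lists as Mir126b with Mir126 and Mir126a as synonyms, and the other two members to the 3p entries of miR-221 and miR-222.
rno-miR-126: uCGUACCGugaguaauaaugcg
rno-miR-126*: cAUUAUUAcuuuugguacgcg
rno-miR-221: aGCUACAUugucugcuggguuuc
rno-miR-222: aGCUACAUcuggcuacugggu
rno-miR-221 and rno-miR-222 shared their seed, and their first 8 bases were identical. The seeds of the 2 strands of miR-126 differed from each other and from that pair, and no further entry among the 693 mature names of the table had a seed of any of the 4. rno-miR-126 is at chr3:29813219-29813240 and rno-miR-126* at chr3:29813182-29813202, both on the plus strand and inside the span of Egfl7. Mir126a is also listed as a separate miRNA gene, whose span holds Mir126b. rno-miR-221 is at chrX:6023246-6023268 and rno-miR-222 at chrX:6022682-6022702, also on the plus strand. The genes of both lie inside the spans of the long non-coding RNA genes LOC120099382 and LOC120099384, and no other gene is listed between them.

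The arrays of the 2 ages differed in brightness before any normalisation. The total gene signal is the scanner software's summed and background-subtracted intensity of a miRNA, and its 75th percentile lay between 67.0 and 73.8 units at 12 months and between 37.4 and 55.4 units at 3 months. The software called 278 to 296 miRNAs detected on the 12-month arrays and 246 to 272 on the 3-month arrays, with the fewest on replicate 13 of 3 months. In order of signal, which also depends on the brightness of each probe, the endocrine miRNA miR-7a stood first or second on every array and miR-375 between the third and the ninth place. Signals as given are therefore shown first, and then values after quantile normalisation, which gives each array the same distribution, so that a normalised value depends only on a miRNA's rank on its array.

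rno-miR-126 was detected in all 7 samples, but its level differed between the ages only before normalisation. Its total gene signal was 2209, 2743, 2137 and 2435 units in the 12-month replicates 2, 4, 10 and 16. It was 1245, 1726 and 1002 units in the 3-month replicates 9, 11 and 13. All 12-month samples lay above all 3-month samples, with means of 2381 ± 273 (SD, n = 4) and 1324 ± 368 units (SD, n = 3), a 1.80-fold difference (exact permutation p = 0.0286, two-sided, which is the lowest value that groups of 4 and 3 allow). Such a separation with higher 12-month signals was seen in 131 of the 272 miRNAs tested, or 48.2%. The place of rno-miR-126 among the 677 miRNAs was 33, 28, 30 and 31 at 12 months and 31, 31 and 32 at 3 months, so the ages overlapped. It supplied 0.690 ± 0.117% (SD, n = 4) of the summed signal of an array at 12 months and 0.655 ± 0.0624% (SD, n = 3) at 3 months (exact permutation p = 0.657).

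**Figure D1:**
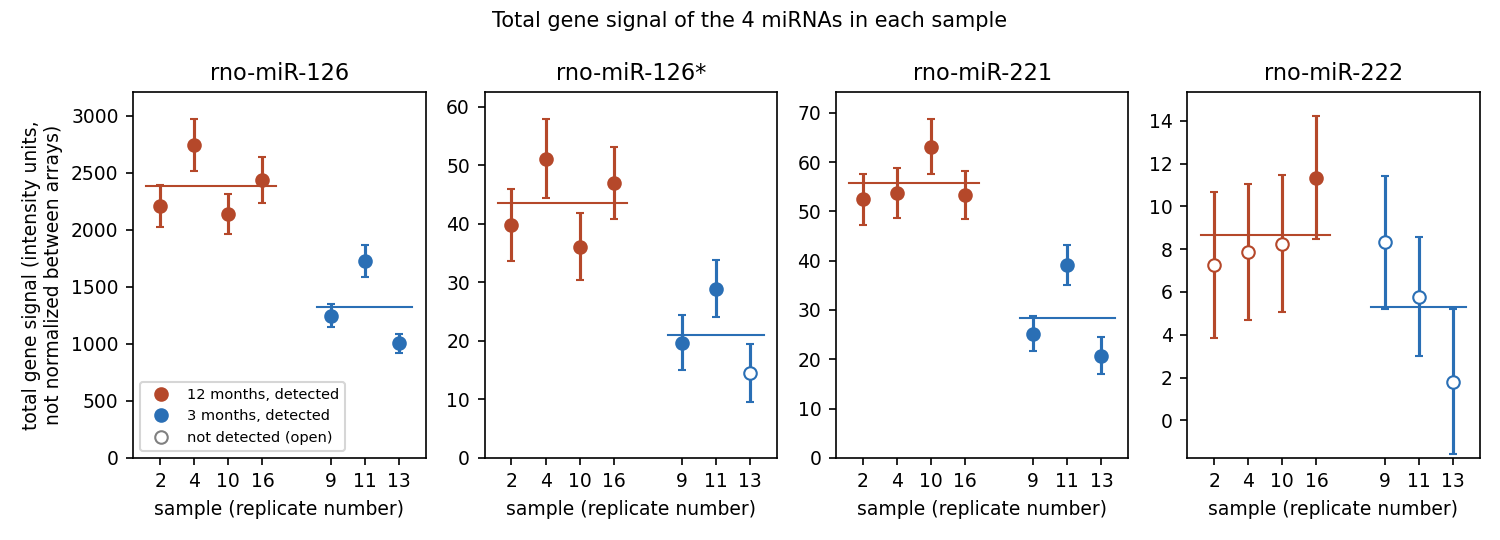
Total gene signal (intensity units, linear axes, one panel per miRNA) in each sample, with the scanner software's own error as bars, filled points where the miRNA was called detected, open points where it was not, and a line at the mean of each age. The 12-month samples of rno-miR-126, rno-miR-126* and rno-miR-221 lie above all 3-month samples, whereas rno-miR-222 was called detected in 1 of 7 samples and its ages overlap.

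After quantile normalisation the log2 level of rno-miR-126 was 10.63, 11.06, 10.88 and 10.81 in the 12-month replicates 2, 4, 10 and 16. It was 10.81, 10.81 and 10.71 in the 3-month replicates 9, 11 and 13. The means were 10.85 ± 0.18 (SD, n = 4) and 10.78 ± 0.06 (SD, n = 3), and the 3-month values lay inside the 12-month range. The difference, 12 minus 3 months, was 0.07 (SE 0.15, 95% CI -0.27 to 0.41), with an adjusted p of 0.899 in limma over the 272 miRNAs that were called detected in all samples of one age or of both. Its sign turned to -0.06 when the log2 signals of single spots were averaged and also after normexp background correction, and to -0.01 with array weights. On the scale of single probes, both probes of rno-miR-126 gave the same picture: the second carried 80.0% of its signal at 12 months and 80.1% at 3 months, and the log2 ratio of the probes differed by 0.01 between the ages (exact permutation p = 0.857).

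rno-miR-126*, the partner strand, gave far weaker signals and was the member with the largest normalised difference among the 3 that were tested. Its total gene signal was 39.8, 51.2, 36.1 and 47.0 units in the 12-month replicates 2, 4, 10 and 16. It was 19.7, 28.9 and 14.5 units in the 3-month replicates 9, 11 and 13, and in replicate 13 it was not called detected. The ages did not overlap, with means of 43.5 ± 6.83 (SD, n = 4) and 21.0 ± 7.33 units (SD, n = 3). Separation in that direction was seen in 48.2% of the miRNAs tested. The software's error on a single signal was 13 to 15.9% at 12 months, and 24.0, 16.8 and 34.6% in the 3-month replicates 9, 11 and 13. Of its 20 spots, all were well above background on 5 arrays, but 8 on replicate 9 and 2 on replicate 13 of 3 months. The 2 samples with the lowest signals were thus also those with the least certain ones.

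Normalised log2 levels of rno-miR-126* were 5.08, 5.31, 5.04 and 5.39 at 12 months and 4.61, 4.86 and 4.42 at 3 months, in the same order of samples. The groups again stayed apart, as they did for 17.3% of the miRNAs tested in either direction. The means of 5.20 ± 0.17 (SD, n = 4) and 4.63 ± 0.22 (SD, n = 3) differed by 0.58 (SE 0.17, 95% CI 0.19 to 0.96), with an unadjusted p of 0.00892 and an adjusted p of 0.0783 in limma. Its rank was 189 to 201 at 12 months and 207 to 224 at 3 months. Without the 3-month replicate 13, where it was not detected, the difference was 0.48 (limma adjusted p = 0.265). As a share of the summed signal the ages overlapped, at 0.0126 ± 0.00203% (SD, n = 4) and 0.0103 ± 0.00173% (SD, n = 3; exact permutation p = 0.2).

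rno-miR-221 was detected in all 7 samples. Its total gene signal was 52.5, 53.7, 63.1 and 53.4 units in the 12-month replicates 2, 4, 10 and 16. It was 25.2, 39.1 and 20.7 units in the 3-month replicates 9, 11 and 13. Replicate 10 stood above the other 12-month samples, which lay between 52.5 and 53.7 units, and no 3-month sample reached any of them. Separation with higher 12-month signals was seen in 48.2% of the miRNAs tested. Means were 55.7 ± 4.99 (SD, n = 4) and 28.3 ± 9.57 units (SD, n = 3), a 1.96-fold difference. All 20 of its spots were well above background on 5 arrays, 12 on replicate 9 and 9 on replicate 13 of 3 months. Its 2 probes kept their shares, with 65.8% of the signal on the brighter one at 12 months and 66.0% at 3 months (difference of the log2 probe ratio 0.01, exact permutation p = 0.886).

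After normalisation rno-miR-221 was at 5.42, 5.37, 5.69 and 5.50 on the log2 scale at 12 months and at 5.04, 5.32 and 4.91 at 3 months. The gap between the nearest samples, replicate 4 of 12 months and replicate 11 of 3 months, was small, but the groups did not overlap. The same held for 17.3% of the miRNAs tested, in either direction. The means of 5.50 ± 0.14 (SD, n = 4) and 5.09 ± 0.21 (SD, n = 3) differed by 0.40 (SE 0.16, 95% CI 0.03 to 0.77), with an unadjusted p of 0.0357 and an adjusted p of 0.190 in limma. The unadjusted p was above 0.05 without any one of the 12-month replicates 2, 4 and 16 and of the 3-month replicates 9 and 13, where the difference was 0.31 to 0.45. The share of summed signal overlapped between the ages (exact permutation p = 0.543).

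rno-miR-222 gave signals near the detection limit. They were 7.27, 7.86, 8.27 and 11.3 units in the 12-month replicates 2, 4, 10 and 16 and 8.32, 5.78 and 1.80 units in the 3-month replicates 9, 11 and 13. Only replicate 16 of 12 months was called detected, with 1 of 20 spots well above background, and the software's error was 25.4% there and 37.2 to 188.7% elsewhere. The ages overlapped, and the member did not pass the filter of the main test. Its normalised levels were 2.79 ± 0.28 (SD, n = 4) and 2.55 ± 0.95 (SD, n = 3) on the log2 scale (exact permutation p = 0.686). In a test that kept every miRNA detected on at least 1 array, the difference was 0.24 (95% CI -0.72 to 1.20, limma adjusted p = 0.855). The arrays lay in 2 rows of 1 slide, each with both ages, and the difference of rno-miR-222 was -0.89 in the first row and 0.91 in the second, so its direction was not settled. The partner strands miR-221* and miR-222*, and miR-3567, which is read from the opposite strand of the miR-126 gene, were not called detected on any array.

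Counted together, 3 of the 4 members could be tested, and 2 of them, rno-miR-126* and rno-miR-221, had an unadjusted p below 0.05 in limma, both with higher values at 12 months. rno-miR-126* passed the filter through its 12-month samples alone, so this count says little about the members as a set. Among all 272 miRNAs tested, 25 (9.19%) were higher at that threshold. No member had an adjusted p below 0.05, whereas 4 of the 272 (1.47%) did. Without normalisation between arrays, all 3 tested members passed the adjusted threshold, with log2 differences of 0.88 for rno-miR-126, 1.09 for rno-miR-126* and 1.02 for rno-miR-221 (limma adjusted p = 0.0260, 0.0168 and 0.0176), but 62.9% of all miRNAs passed as well. With array weights, which give deviating arrays less influence, rno-miR-126* alone among the members passed (difference 0.53, limma adjusted p = 0.0406), in a fit that called 17.6% of the miRNAs. Over its 24 tested alternatives that adjusted p ranged from 0.0168 to 0.765.

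The unnormalised differences can be read against miRNAs of similar brightness. For the 46 tested miRNAs with a mean signal from 512 to 4096 units, the class of rno-miR-126, the median log2 difference of signals as given was 0.78, with an interquartile range of 0.67 to 0.88. rno-miR-126, at 0.88, stood at the upper end of that range. For the 72 miRNAs from 16 to 64 units, the class of rno-miR-126* and rno-miR-221, the median was 0.69 and the interquartile range 0.23 to 0.92. Both members, at 1.09 and 1.02, lay above it. Under quantile normalisation the medians of the classes were 0.03 and 0.05.

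**Figure D2:**
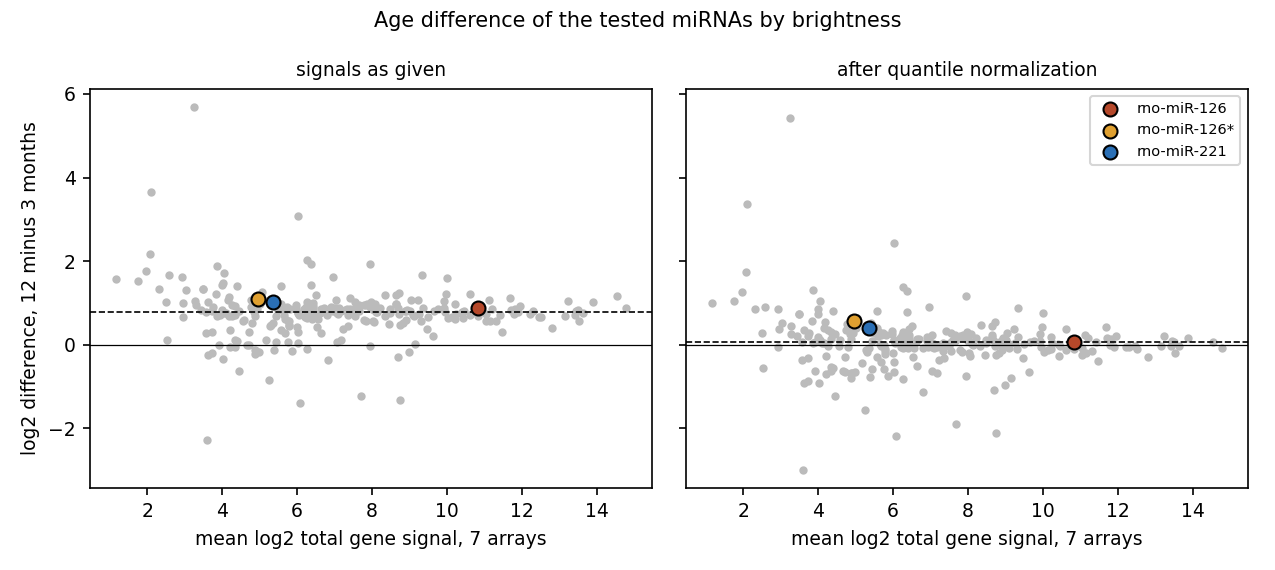
Difference in log2 signal between 12 and 3 months (vertical axis) against the mean log2 total gene signal over the 7 arrays (horizontal axis) for the 272 tested miRNAs in grey and 3 members in colour, for signals as given on the left and after quantile normalisation on the right; the dashed line is the median of all miRNAs. rno-miR-126 moves from 0.88 to 0.07 and stays near the dashed line, while rno-miR-126* and rno-miR-221 lie above it on both sides.

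The ratio of the 2 strands of miR-126 compares signals of the same array and so does not depend on a scaling of whole arrays. The probes of the strands differ in brightness, so the ratio is compared between samples and is not a ratio of molecules. The signal of rno-miR-126 was 55.5, 53.6, 59.2 and 51.8 times that of rno-miR-126* in the 12-month replicates 2, 4, 10 and 16. It was 63.4, 59.6 and 69.3 times that of rno-miR-126* in the 3-month replicates 9, 11 and 13. In replicate 13, with the highest ratio, rno-miR-126* was not called detected. The groups just failed to overlap, with 59.2 in replicate 10 of 12 months against 59.6 in replicate 11 of 3 months. On the log2 scale the means were 5.78 ± 0.08 (SD, n = 4) and 6.0 ± 0.11 (SD, n = 3), a difference of -0.22 (two-sided exact permutation test, p = 0.0571, adjusted p = 0.400 over the 7 ratios tested here). Without replicate 13 of 3 months the difference was -0.16 (exact permutation p = 0.133). The error of a single log2 ratio from the software's own estimates was 0.22 to 0.26 at 12 months and 0.27 to 0.51 at 3 months, as large as the difference or larger. Within the rows of the slide the differences were -0.22 and -0.21.

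The size of that shift was near the median of the tested strand pairs named in the same way. Of 31 tested pairs named without and with a star, 20 had a lower ratio of unstarred to starred strand at 12 months. A weak starred strand could pass the filter through its 12-month samples alone, as rno-miR-126* did, and such a pair tends to a lower ratio at 12 months. The counts of pairs given here thus say little about strands in general. The median difference was -0.07. Pairs named in other ways were not included. The median absolute difference was 0.22, and 15 pairs had a larger one than miR-126. Ratios as given did not overlap between the ages in 7 of the 31 pairs (22.6%). Quantile-normalised values made the miR-126 difference larger, at -0.51 (exact permutation p = 0.0286), and 8 pairs then exceeded it. The values in the authors' table gave -0.32 (exact permutation p = 0.0571).

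**Figure D3:**
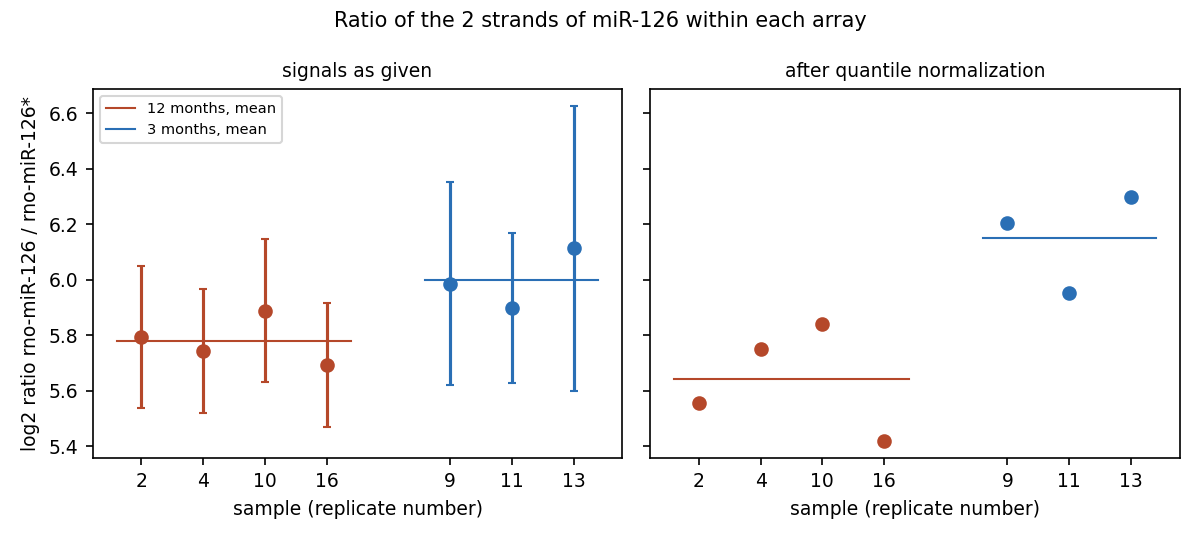
Log2 ratio of rno-miR-126 to rno-miR-126* in each sample (vertical axis; replicate numbers on the horizontal axis), for signals as given on the left, with the error computed from the scanner software's estimates, and after quantile normalisation on the right; lines are the mean of each age. The difference between the means is -0.22 on the left and -0.51 on the right, and on the left most error bars reach across the other age's mean.

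The other ratios did not separate the ages beyond the spread between samples. The log2 ratio of rno-miR-221 to rno-miR-222, the pair with a shared seed, was 2.70 ± 0.32 (SD, n = 4) at 12 months and 2.63 ± 0.97 (SD, n = 3) at 3 months (exact permutation p = 0.829), and it rests on signals of rno-miR-222 that were mostly not called detected. That of rno-miR-126 to rno-miR-221 was 5.42 ± 0.25 (SD, n = 4) and 5.56 ± 0.09 (SD, n = 3; exact permutation p = 0.457). Set against miR-375, an abundant miRNA of islet endocrine cells, the members were higher at 12 months by 0.30 for rno-miR-126, 0.52 for rno-miR-126*, 0.45 for rno-miR-221 and 0.38 for rno-miR-222 on the log2 scale. Their exact permutation p-values were 0.257, 0.143, 0.257 and 0.6. Scaled to miR-7a, another endocrine miRNA, the differences of the 3 tested members were 0.01, 0.23 and 0.15 (limma adjusted p = 0.998, 0.765 and 0.942).

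**Figure D4:**
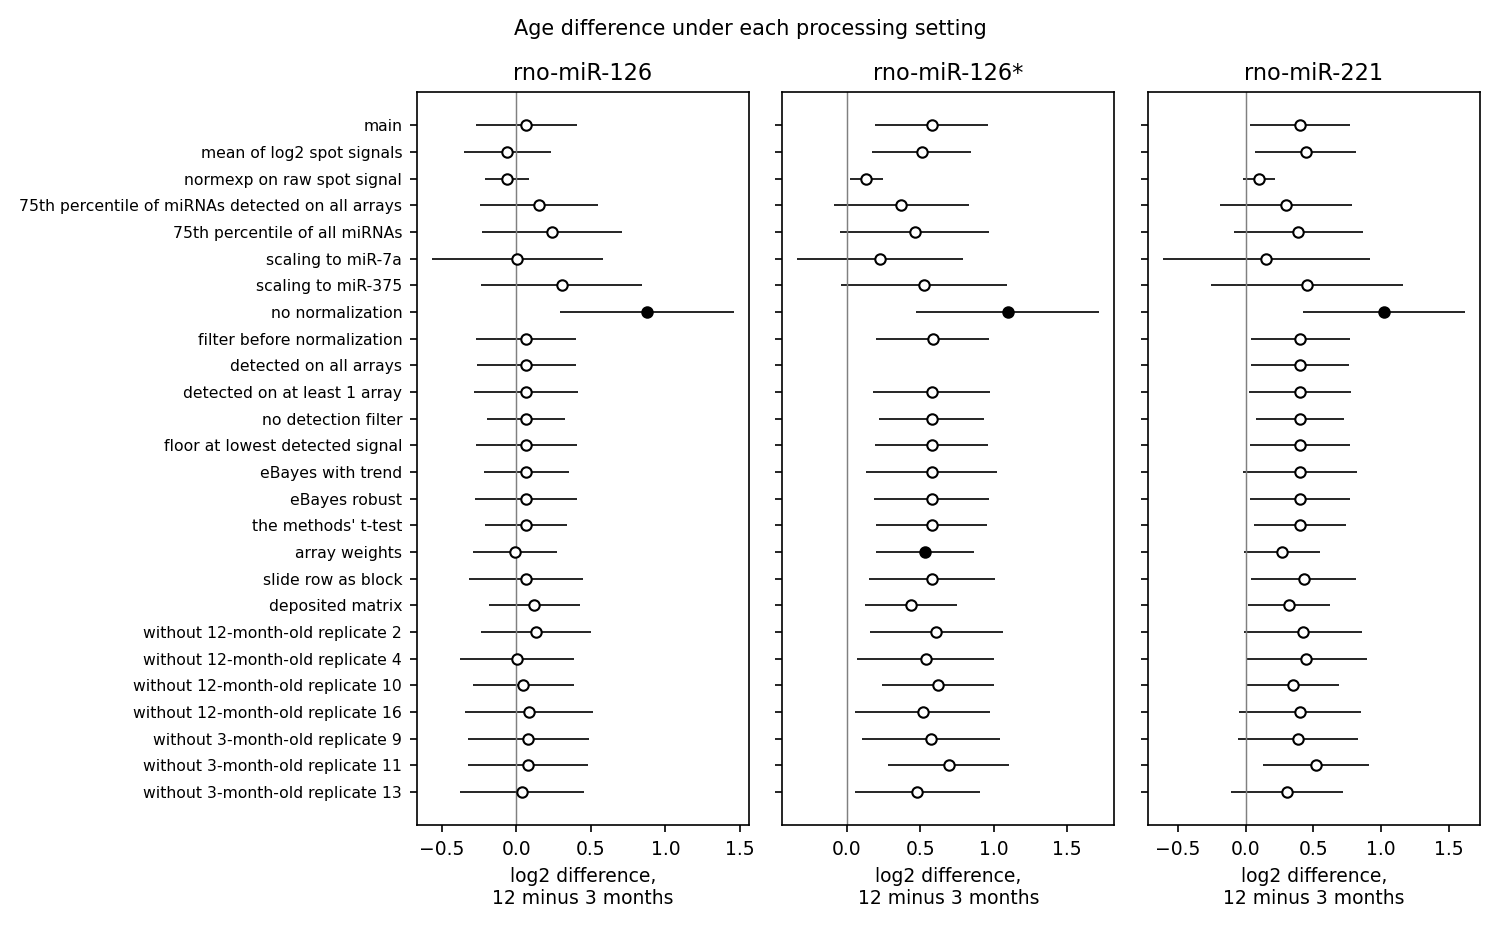
Difference in log2 level between 12 and 3 months (horizontal axis, dots, with 95% confidence intervals as bars) of the 3 tested members under the main setting, top row, and each alternative; filled dots have an adjusted p below 0.05 over all miRNAs tested, and no dot is drawn where the miRNA did not pass the filter. Without normalisation all 3 are filled, at 0.88, 1.09 and 1.02, and with array weights rno-miR-126* is filled at 0.53.

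The miRNAs whose signals ran most nearly in proportion to a member were found by the SD, over the 7 arrays, of the log2 ratio of the signals as given, among 237 other miRNAs detected on all arrays. For rno-miR-126 they were miR-27a (SD 0.11), miR-100 (0.12), miR-505 (0.13), miR-140 (0.15) and miR-150 (0.15), where the median of all candidates was 0.31. For rno-miR-221 they were miR-27a (0.12), miR-23a (0.13), miR-140 (0.15), miR-450a (0.15) and miR-130a (0.16), with a median of 0.40. rno-miR-221 stood at place 14 for rno-miR-126, with an SD of 0.20, and rno-miR-126 at place 10 for rno-miR-221. miR-27a led both orders. All such ratios share the brightness of their array, and they describe these 7 samples only.

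Other miRNAs known from blood vessels gave no common direction. Of the 17 in this list, 15 were tested, miR-296 was not called detected on any array, and miR-155 was not matched by name. The median normalised log2 difference was 0.06, the same as over all 272 miRNAs, with 9 higher and 6 lower. The highest were miR-218a (0.82, limma adjusted p = 0.0608), which acts on Robo receptors of vessel guidance, and miR-10a-5p (0.45, adjusted p = 0.277). The lowest were miR-92a (-0.75, adjusted p = 0.176), which is known to restrain vessel growth, and miR-378 (-0.43, adjusted p = 0.170). At an unadjusted p below 0.05, 1 of the 15 was higher, miR-218a, and 2 were lower, miR-92a and miR-378, beside 9.19% and 12.5% of all miRNAs tested. The summed normalised level of the list was 23550 to 30970 units at 12 months and 26660 to 28170 at 3 months, so the ages overlapped.

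Markers of other cells were read in the same samples. All 5 miRNAs of mural and mesenchymal cells had higher means at 12 months, as 157 of all 272 miRNAs did, with a median log2 difference of 1.16 beside 0.06 over all. An unadjusted p below 0.05 was reached by 4 of the 5, against 25 of all 272 in that direction. Only 4 of the 5 were detected on all arrays, and the remaining miRNA passed the filter through a single age. The lowest of the 5 was miR-145, with normalised log2 means of 4.37 at 12 months and 3.51 at 3 months. This count thus says little about the list as a set. miR-199a-5p differed by 1.39 and miR-214 by 1.30 (both limma adjusted p = 0.0608), miR-145, a miRNA of smooth muscle, by 0.86 (adjusted p = 0.191) and miR-143 by 0.38 (adjusted p = 0.324). The summed level of these 5 was 1912 to 2801 units at 12 months and 1216 to 1918 at 3 months, so the ages overlapped. miR-143, with normalised log2 means of 10.76 at 12 months and 10.38 at 3 months, added most to this sum. Among 5 miRNAs of leukocytes and platelets, 2 were higher with an unadjusted p below 0.05, against 25 of all 272. They were miR-142-5p (1.31, adjusted p = 0.0769) and miR-142-3p (0.91, adjusted p = 0.118). miR-146a (0.10, adjusted p = 0.943) and miR-223 (-0.05, adjusted p = 0.943) differed less. Here too 4 of the 5 were detected on all arrays, and the remaining miRNA passed the filter through a single age. The lowest of these 5 was miR-142-5p, with normalised log2 means of 4.44 at 12 months and 3.12 at 3 months. The count of higher miRNAs in this list thus says little about it as a set. The list's summed level was 405 to 822 units and 395 to 463 units. These cells are relevant here because platelets carry miR-126 and miR-221 is made in many mesenchymal cells.

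The 3 miRNAs of acinar cells had lower means at 12 months, each with an unadjusted p below 0.05, against 34 of all 272 miRNAs (12.5%) in that direction: miR-216b-5p by -2.19, miR-216a by -2.11 and miR-217 by -1.89 (limma adjusted p = 0.163 to 0.170). Their summed level spread widely at 12 months, from 123 to 1376 units, against 1211 to 2853 at 3 months. Of the erythroid miRNAs, miR-451 differed by -0.35 and miR-144 by -0.69 (adjusted p = 0.706 and 0.565), with a summed level of 121 to 229 units and 95.1 to 302 units. The 3 tested endocrine miRNAs differed by -0.07 (miR-7a), -0.20 (miR-375) and -0.27 (miR-7b), with adjusted p-values of 0.552 to 0.897. miR-7a stood first or second on every array, so quantile normalisation nearly fixed its value. As given, its log2 signal differed by 0.87, beside a median of 0.79 over all miRNAs tested. The summed level of the list, to which miR-7a added most, was 34800 to 41860 units at 12 months and 41150 to 45630 at 3 months. miR-184 was not called detected. No miRNA of any of these lists had an adjusted p below 0.05. Whether the cell types that these lists stand for had a part in the values of rno-miR-126* and rno-miR-221 was not tested.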

How the data were processed

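Per the labels, total RNA was isolated with a miRNeasy kit, labelled with Cy3 and hybridised to Agilent miRNA arrays, and the submitters' processing notes name Agilent Feature Extraction 10.7.3.1. The deposited scanner files hold intensity values. The software had subtracted the background from each spot and summed the spots of a miRNA to the total gene signal, with an error and a detection call. The authors' deposited table of 307 miRNAs holds log2 values and was used as an alternative only. The study's supplement describes the log2 values of these arrays as quantile normalised.

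Here total gene signals were floored at 1 unit, taken to log2 and quantile normalised over 677 rat miRNAs. Tests covered the 272 miRNAs called detected in all samples of one age or of both, fitted with limma 3.58.1 in R 4.3.3 (lmFit, eBayes, Benjamini-Hochberg adjustment). This filter kept 3 of the 4 members. Exact permutation tests, two-sided on the absolute difference of means, used all 35 divisions of 7 samples into 4 and 3 (scipy 1.17.1). The fit was tested on simulated data. No rat spot was saturated. The number of arrays limits the precision.

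Members and lists were chosen with earlier results of these data known. Besides the members, the text names the 5 miRNAs of most constant ratio to each member detected on all arrays, miR-375 and miR-7a, and the 2 highest and 2 lowest tested miRNAs of each list. The listed miR-218 was read as miR-218a, its name on the array (RefSeq synonyms), after its value was seen; miR-155 had no match. miR-296, miR-184, the partner strands and miR-3567 are named only as not detected.
Alternatives concerned the spot summary, background correction, normalisation, detection filter, floor, variance model (with the methods' t-test), array weights, row of the slide, authors' table and each sample left out.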

Additional observations from a re-analysis of the deposited data

Results flagged for a closer look

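Replicate 10 of 12 months had a total gene signal of rno-miR-221 of 63.1 units, away from the 52.5 to 53.7 units of the other 12-month samples. The gap was 0.885 of the whole range of the 4 samples, above Dixon's 95% critical value of 0.829. It was 1 of 15 sets of 4 samples examined, and chance alone gives about 1 in 20. Without replicate 10 the normalised log2 difference of rno-miR-221 was 0.35 (limma adjusted p = 0.151).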

How the results depend on the processing

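No paired analysis was possible because the 2 ages share no replicate numbers. For rno-miR-126 the difference turned to -0.060 with averaged spot signals, -0.062 with normexp and -0.0068 with array weights, and without normalisation it was 0.88 and passed the adjusted threshold. rno-miR-126* passed it without normalisation (1.09) and with array weights (0.53), and rno-miR-221 without normalisation (1.02). The members past the adjusted threshold thus numbered 3 and 1 in these settings, against 0 in the main one. At an unadjusted p below 0.05, against 2 in the main setting, there were 0 with either 75th percentile scaling, miR-7a or miR-375, and 1 with normexp, detection on all arrays (which removes rno-miR-126*), eBayes with trend and array weights. The methods' t-test called 49 of 272 miRNAs at the threshold and 3 after Benjamini-Hochberg adjustment, and 2 and 0 of the members.
Leaving out 1 sample gave 0.01 to 0.13 for rno-miR-126, 0.48 to 0.69 for rno-miR-126*, 0.31 to 0.52 for rno-miR-221, -0.25 (without the 3-month replicate 13) to 0.70 for rno-miR-222, and 1 to 2 members at an unadjusted p below 0.05. The difference in strand ratio of miR-126 was -0.27 to -0.16.
Quantile values moved 3 ratios to an exact permutation p of 0.0286, the strand ratio (-0.51) and those of rno-miR-126* (0.78) and rno-miR-221 (0.60) to miR-375; the authors' table did so for rno-miR-126* (0.57). The cause was not tested. All other alternatives kept the direction and the side of the threshold, except that the ratios with rno-miR-222 changed sign when single samples were left out (-0.44 to 0.52 for rno-miR-221 over it, -0.18 to 0.78 for it over miR-375). The count of all miRNAs with an adjusted p below 0.05, 4 in the main setting, was 1 to 20 in the alternatives other than no normalisation (171) and array weights (48). Signal over background limits rno-miR-126* at 3 months and rno-miR-222 throughout.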
